A study of Mus musculus with 4 samples.

Results

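Retinoic acid synthesis, binding and breakdown were followed through 9 of the 32285 genes in single-cell libraries of the E10.5 mouse heart. The 9 genes were chosen by name, and every row of the count matrices with one of these symbols was taken. Aldh1a2 and Dhrs3 set the supply of retinoic acid, Crabp1 and Crabp2 bind it in the cytoplasm, Rara, Rarb and Rarg are its nuclear receptors, and Cyp26a1 and Cyp26b1 break it down. The question asked was in which cells of the heart each step is transcribed and whether a mutation in cholesterol synthesis changes it.

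The study compared wild-type (Wt) with homozygous Cyp51 I383V (Ho) C57BL/6J embryos, with 2 libraries for each genotype and CRISPR/Cas9 given in the labels as the treatment of all 4. Cyp51 encodes lanosterol demethylase of the cholesterol pathway, and the mutation is a knocked-in point change. How many hearts entered a library was not given in the sources used here. The p-values between genotypes thus reflect only how far the 2 libraries of each genotype lay apart, which may be technical. Those between groups of cells reflect how far the differences between groups varied over the 4 libraries. Both use an estimate of spread that is partly shared across genes. The droplet assay tags each captured 3' end of an mRNA with a unique molecular identifier (UMI), and 8908 and 7154 cells of Wt rep1 and Wt rep2 and 6980 and 6126 cells of Ho rep1 and Ho rep2 were used.

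Retinoic acid is made from vitamin A by retinol and retinaldehyde dehydrogenases, leaves the cell that makes it, and acts in neighbouring cells on receptors that sit on DNA with retinoid X receptors. Cells that express Cyp26 enzymes oxidise it and so keep it from their own receptors, which places sources and sinks side by side in the embryo. In the heart it is known for its roles at the venous pole, in the second heart field and in the epicardium, the outer layer that feeds growth of the ventricular wall.

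Rarb and Cyp26a1 are textbook direct targets of the receptors, which bind 2 half-sites spaced by 5 bases (a DR5 element). Their promoters are shown because this letter pattern was found in both. The half-site AGGTCA, its variant AGTTCA, a further variant GGGTCA and the last variant GGTTCA were searched in pairs in the same orientation, with any 5 bases between them and on both strands, in 300 bases around each RefSeq start (250 before it and 50 after it, build GRCm38.p6). Promoters of 8 of the 9 genes were matched. A DR5 match was present in the promoters of Rarb and Cyp26a1, and in 32 of all 32851 promoters (0.097%). The 150 bases before the start are printed on the strand of the gene, with the match in capitals.
Rarb, chr14:16575477-16575626, minus strand: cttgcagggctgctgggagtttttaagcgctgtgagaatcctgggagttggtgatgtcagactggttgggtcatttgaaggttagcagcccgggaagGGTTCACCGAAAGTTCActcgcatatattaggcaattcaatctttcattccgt
Cyp26a1, chr19:37697658-37697807, plus strand: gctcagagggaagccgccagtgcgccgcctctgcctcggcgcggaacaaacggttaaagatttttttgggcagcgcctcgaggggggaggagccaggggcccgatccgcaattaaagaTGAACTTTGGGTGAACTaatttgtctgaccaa
In Rarb the match lay 53 bases before the start and read along the gene. In Cyp26a1 it lay 32 bases before the start and on the opposite strand, where it reads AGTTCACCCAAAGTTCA. A match is a run of letters and not a measured binding site, and the 2 genes did not share a pattern of expression, as the values that follow show.

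Before the members are described, 2 libraries have to be set apart. Ho rep1 was the only female library, with 254.5 UMIs per 1000000 UMIs (CPM) of the X-inactivation transcript Xist in the whole library against 0.0515, 0.0380 and 0.0203 CPM in Wt rep1, Wt rep2 and Ho rep2. It also held 6 Foxf1 cells and 0 Epcam cells, where the other libraries had 180 to 507 and 157 to 389. Its sums also held more of the embryonic globin Hba-x, a gene of red blood cells, at 315 CPM in the sinus venosus gate against 1.27, 1.36 and 2.30 CPM in Wt rep1, Wt rep2 and Ho rep2. The same gene was at 307 CPM in its endocardium against 1.47, 3.15 and 3.41 CPM, and at 82.0 CPM in its other cardiomyocytes against 1.50, 3.15 and 4.95 CPM. Wt rep1 was the shallowest library, with a median of 10561 UMIs per cell against 14215.5 to 15831.5 in the others. Its Prrx1 mesenchyme carried the pharyngeal arch gene Dlx5 at 45.3 CPM, against 2.00, 0 and 4.72 CPM in Wt rep2, Ho rep1 and Ho rep2. Cyp51 itself was at 72.0 and 62.5 CPM in the Wt libraries and at 54.6 and 66.9 CPM in the Ho libraries, which does not check the labels because the mutation changes 1 amino acid and not the 3' end that is counted. Between 9 and 28 cell barcodes were shared by any 2 libraries, at most 0.401% of the cells of the smaller one.

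Cells were assigned to 7 gates by marker genes that are not among the 9. The epicardium gate (Upk3b) held 122, 187, 135 and 184 cells in Wt rep1, Wt rep2, Ho rep1 and Ho rep2, the order used throughout. Sinus venosus cells, which are cardiomyocytes of the venous pole with Tnnt2 and Shox2, numbered 268, 270, 397 and 484, and the other Tnnt2 cardiomyocytes numbered 1364, 2238, 2913 and 1789. The endocardium gate (Cdh5) held 773, 1263, 1364 and 768 cells, Foxf1 mesenchyme 365, 180, 6 and 507, Prrx1 mesenchyme without Foxf1 880, 221, 109 and 124, and epithelium (Epcam) 389, 157, 0 and 243. All 8 epicardial markers of a list had UMIs in the epicardium gate of each library, as did all 7 sinus venosus markers, all 10 cardiomyocyte markers and all 10 endothelial markers in theirs. In the Prrx1 gate of Ho rep1, 6 of 9 Prrx1 mesenchyme markers had a UMI. Levels are given as CPM of all UMIs summed over the cells of a gate in a library, and sums of under 10 cells were left out.

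Aldh1a2, the retinaldehyde dehydrogenase that makes most retinoic acid of the early embryo, was an epicardial gene in these hearts. Its level in the epicardium was 57.4, 59.6, 44.3 and 66.3 CPM, a mean of 56.9 ± 9.22 CPM (SD, n = 4). Foxf1 mesenchyme came next with 19.8 and 8.53 CPM in the Wt libraries and 34.5 CPM in Ho rep2. The sinus venosus followed with 5.34, 4.07, 3.10 and 2.66 CPM, and no library of one of these 3 gates reached the range of the next. Against the mean of the other gates Aldh1a2 was higher in the epicardium by a log2 fold change of 5.48 (SE 0.20, edgeR adjusted p = 5.5e-16) and in Foxf1 mesenchyme by 3.57 (SE 0.25, edgeR adjusted p = 3.55e-10). Muscle cells had little of it. In the other cardiomyocytes Aldh1a2 was at 1.44, 0.968, 1.10 and 1.45 CPM, all below the sinus venosus, a log2 difference of 1.35 (SE 0.34, edgeR adjusted p = 0.00497). The endocardium held 8 Aldh1a2 UMIs in 4 libraries, at 0.0431 to 0.205 CPM, and the epithelium held 4 in its 3 libraries. The size of the fold changes against the mean of the other gates thus rests in part on gates near 0.

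Since cells differ in depth, the share of cells with an Aldh1a2 UMI was counted after each cell had been thinned to 2000 UMIs. In the epicardium 4.13% (exact 95% binomial interval 1.36% to 9.38%), 11.8%, 9.63% and 9.78% of cells had one. In the endocardium, taken as the background of free RNA, it was 0.130%, 0%, 0% and 0.130%, where 0 of 1263 and 0 of 1362 cells allow up to 0.238% and 0.220%. Intervals and limits cover counting error only. Median depth before thinning was 17314.5 to 22513 UMIs in the epicardium and 14608 to 17997.5 in the endocardium. Without thinning, 48.4%, 51.9%, 50.4% and 59.2% of epicardial cells had an Aldh1a2 UMI. Of the 2020 Aldh1a2 UMIs in all cells used, 38.5% lay in the epicardium gate, which held 1.37% to 3.00% of the cells of a library, and 20.1% in Foxf1 mesenchyme.

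Dhrs3, a retinaldehyde reductase that turns the precursor back into retinol, was low and had its highest level elsewhere. In the epithelium it was at 6.91, 16.7 and 13.0 CPM in Wt rep1, Wt rep2 and Ho rep2, above every library of the other gates, and the log2 fold change against their mean was 2.46 (SE 0.25, edgeR adjusted p = 4.57e-08). Foxf1 mesenchyme had 5.96, 2.03 and 5.65 CPM, a log2 fold change of 1.14 (SE 0.27, edgeR adjusted p = 0.00151). The epicardium, which had the most Aldh1a2, had 0.919, 0.985, 1.28 and 0.972 CPM of Dhrs3, from 14 UMIs in all. It lay below the mean of the other gates by 1.31 on the log2 scale (SE 0.39, edgeR adjusted p = 0.00911). Low Dhrs3 was not particular to it. Prrx1 mesenchyme (0.859 to 1.42 CPM), the other cardiomyocytes (1.16 to 1.82 CPM) and the sinus venosus (0.905 to 2.17 CPM) overlapped with the epicardium.

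Crabp1 and Crabp2, cytoplasmic carriers of retinoic acid, marked mesenchyme and epithelium. Crabp1 was at 293, 281 and 136 CPM in Foxf1 mesenchyme of Wt rep1, Wt rep2 and Ho rep2. In Prrx1 mesenchyme it reached 864 CPM in Wt rep1, against 125, 85.6 and 155 CPM in the other 3 libraries. The epithelium had 218, 166 and 38.4 CPM. These 3 gates overlapped with each other, the epithelium of Ho rep2 also with the epicardium, and their log2 fold changes against the mean of the other gates were 2.77 (SE 0.28), 3.08 (SE 0.25) and 1.56 (SE 0.32), each with an edgeR adjusted p of at most 0.000316. The endocardium had the least Crabp1, at 4.89, 0.991, 0.547 and 1.36 CPM, and was lower by 5.23 on the log2 scale (SE 0.45, edgeR adjusted p = 7.89e-10).

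Crabp2, which hands retinoic acid to the receptors, was highest in the epithelium at 964, 410 and 444 CPM. Foxf1 mesenchyme had 448, 309 and 312 CPM, and Prrx1 mesenchyme 462, 88.9, 39.7 and 96.2 CPM, again with Wt rep1 far above the other libraries. Among muscle cells Crabp2 separated the venous pole from the rest. Sinus venosus cells had 102, 78.8, 117 and 123 CPM and the other cardiomyocytes 41.6, 21.3, 19.6 and 27.5 CPM, without overlap, for a log2 difference of 1.90 (SE 0.33, edgeR adjusted p = 0.000179). Crabp1 did not share this difference, at 16.3, 17.0, 11.2 and 13.4 CPM in the sinus venosus and 30.4, 18.2, 15.0 and 22.2 CPM in the other cardiomyocytes (log2 difference of -0.73, SE 0.41, edgeR adjusted p = 0.192). Over whole libraries a Crabp1 UMI was found in 3985, 1513, 792 and 1436 cells of Wt rep1, Wt rep2, Ho rep1 and Ho rep2. A Crabp2 UMI was found in 4880, 1994, 1294 and 2491 cells, and 3242, 947, 266 and 980 cells held both.

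The 3 receptor genes differed in how they were spread over the gates, Rara and Rarb more evenly than Rarg on the log2 scale. Rara, the receptor present in most tissues, ranged between 14.8 and 27.9 CPM in 6 of the 7 gates. The epicardium was the exception with 5.06, 9.85, 7.07 and 8.50 CPM, lower than the mean of the other gates by 1.29 on the log2 scale (SE 0.14, edgeR adjusted p = 9.05e-08) and below every library of every other gate. The gate with the highest level of Aldh1a2 thus had the lowest level of this receptor. The endocardium had a little more Rara than the mean of the other gates, by 0.45 on the log2 scale (SE 0.09, edgeR adjusted p = 0.000139).

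Rarb, the receptor gene with the DR5 match, was highest in the epithelium, at 12.7, 26.7 and 17.9 CPM, a log2 fold change of 1.25 (SE 0.19, edgeR adjusted p = 8.97e-06). In the sinus venosus it was at 7.63, 7.24, 6.98 and 6.90 CPM and in the other cardiomyocytes at 7.15, 8.27, 6.70 and 8.93 CPM, so the muscle gates overlapped (log2 difference of -0.28, SE 0.20, edgeR adjusted p = 0.296). Its mean was lowest in the endocardium, at 2.69 to 4.44 CPM, which overlapped with the epicardium at 1.84 to 9.72 CPM. The endocardium had a log2 fold change of -1.25 (SE 0.16, edgeR adjusted p = 5.81e-07).

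Rarg was highest in Prrx1 mesenchyme and lowest in muscle by mean. Prrx1 mesenchyme had 16.7, 14.2, 13.2 and 6.87 CPM, a log2 fold change of 3.07 (SE 0.20, edgeR adjusted p = 1.03e-10), and Foxf1 mesenchyme had 7.24, 6.50 and 3.53 CPM. The epithelium had 4.68 to 4.87 CPM and the endocardium 5.38, 3.96, 4.06 and 5.45 CPM, both overlapping with Foxf1 mesenchyme. In the other cardiomyocytes Rarg was at 0.0947 to 0.360 CPM, from 32 UMIs in the 4 libraries, and in the sinus venosus at 0.242 to 0.466 CPM, from 8 UMIs. In the other cardiomyocytes Rarg was lower than in the mean of the other gates by 3.21 on the log2 scale (SE 0.30, edgeR adjusted p = 3.31e-09).

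Both Cyp26 enzymes had their highest mean in the endocardium gate, named for the inner lining of the heart. Cdh5 alone set this gate, so it can also hold other endothelial cells. Cyp26b1 was at 16.7, 13.1, 18.9 and 18.5 CPM there (205, 304, 485 and 272 UMIs). The log2 fold change against the mean of the other gates was 4.59 (SE 0.26, edgeR adjusted p = 6.88e-13). Its size rests in part on gates near 0, with 3 UMIs in the epicardium and 4 in the sinus venosus over the 4 libraries. With libraries pooled, the endocardium was 13.8-fold above Foxf1 mesenchyme, 19.1-fold above Prrx1 mesenchyme and 1.31-fold above the epithelium. Of all 2199 Cyp26b1 UMIs, 57.6% came from the endocardium gate and 27.3% from cells left in no group. The epithelium was the only other gate with more than 2 CPM, at 23.4, 2.01 and 4.06 CPM, where Wt rep1 supplied 105 of 123 UMIs. In the epicardium, the sinus venosus and the other cardiomyocytes no library exceeded 0.460 CPM.

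Cyp26a1 was scarcer and more confined, with 86.4% of its 464 UMIs in the endocardium. It was at 4.16, 5.65, 1.17 and 12.9 CPM there (51, 131, 30 and 189 UMIs), so the 2 Ho libraries held the lowest and the highest value. In the epicardium and the sinus venosus 0 UMIs were counted in 4 libraries, and the epithelium, Foxf1 mesenchyme, Prrx1 mesenchyme and the other cardiomyocytes had 1, 2, 9 and 13. No fitted fold change is given, since it would rest on the gates at 0 and the gene passed the filter on low counts through the endocardium. A floor of 3 counts over the 4 libraries of a gate was set against the pooled endocardial level of 5.29 CPM. That level was at least 23.8-fold higher than the epicardium and at least 40.7-fold higher than the sinus venosus. Ho rep2 supplied 189 of the 401 endocardial UMIs, so both limits would be lower without this library. A UMI of each enzyme was found in 4, 8, 4 and 6 endocardial cells, against 35, 67, 21 and 60 with Cyp26a1 and 108, 160, 231 and 137 with Cyp26b1.

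**Figure D1:**
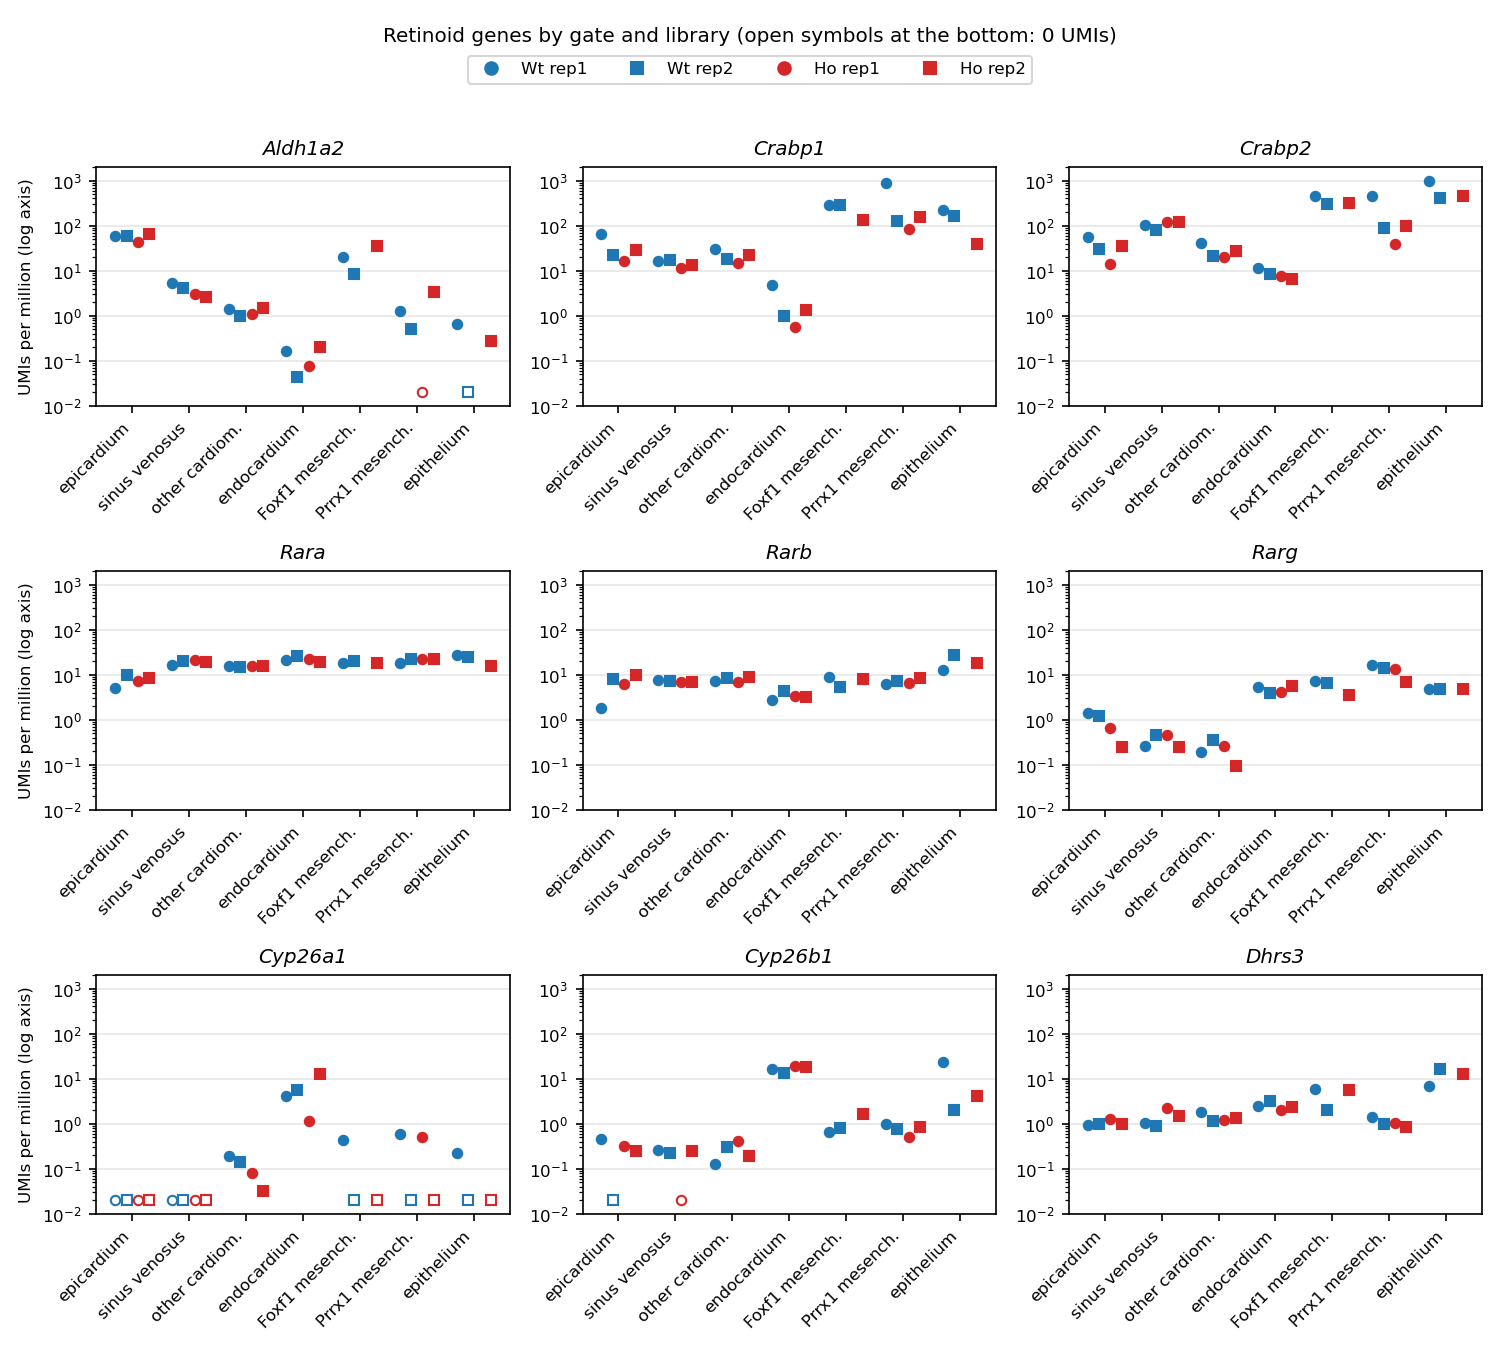
Level of each of the 9 genes in CPM (log axis) by gate, with 1 point per library, blue for Wt and red for Ho, and open symbols where no UMI was counted. Aldh1a2 peaks in the epicardium at 44.3 to 66.3 CPM and Cyp26a1 in the endocardium, Cyp26b1 has its highest mean in the endocardium with 1 epithelial library above it at 23.4 CPM, and Rara falls below 10 CPM only in the epicardium.

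Few single cells held Aldh1a2 together with a Cyp26 gene. Over whole libraries 312, 207, 146 and 520 cells held an Aldh1a2 UMI and 324, 262, 356 and 242 a Cyp26b1 UMI, and 6, 1, 1 and 6 cells held both. With Cyp26a1 the overlap was 1, 0, 0 and 2 cells. These counts are given with no test. Each gene was found in a small part of the cells, so few joint cells are not read as a separation of sources and sinks.

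The counts of members called per gate are read against all 13054 genes tested. In the epicardium 1 of the 9 genes was higher and 5 were lower than in the mean of the other gates, where 46.3% of all genes were called, 23.4% higher and 22.8% lower. For the endocardium it was 4 higher and 4 lower, beside 62.3% of all genes (31.8% and 30.5%). The 4 higher included Cyp26a1, which passed the filter on low counts through this gate, so its call is not read as a result. Cyp26a1 also stayed among the 9 genes tested in the other gates. The other cardiomyocytes had 1 higher and 4 lower (65.2% of all genes, 34.3% and 30.9%), and the sinus venosus 3 higher and 3 lower (60.1%, 31.0% and 29.1%). In Foxf1 mesenchyme 5 of 9 were higher and 0 lower (45.7%, 22.0% and 23.7%), in Prrx1 mesenchyme 3 and 1 (41.2%, 21.7% and 19.5%), and in the epithelium 6 and 1 (49.5%, 25.9% and 23.6%). Between the sinus venosus and the other cardiomyocytes 2 members, Aldh1a2 and Crabp2, were higher and 0 lower (12.9% and 16.5%). Foxf1 mesenchyme had 3 members higher than Prrx1 mesenchyme, Aldh1a2, Crabp2 and Dhrs3, and 1 lower, Rarg (6.92% and 11.1%). For Crabp2 that call was lost without Ho rep1 (adjusted p = 0.0737 with edgeR) and without Wt rep2 or Ho rep2.

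Some members also differed within a gate. When the other cardiomyocytes were split by the ventricular gene Myl2, after the values had been seen, Crabp2 was at 71.9, 44.9, 45.4 and 56.7 CPM in cells with little Myl2 and at 14.5, 6.59, 6.99 and 8.10 CPM in cells with much of it. Aldh1a2 split the same way, at 2.10 to 3.15 CPM against 0.148 to 0.357 CPM. Cells with little Myl2 thus overlapped with the sinus venosus for Aldh1a2 (2.66 to 5.34 CPM there) and lay below it for Crabp2 (78.8 to 123 CPM there). The part of this split in the differences between the sinus venosus and the other cardiomyocytes was not tested. Rara differed less, at 16.7 to 18.1 CPM against 13.1 to 14.8 CPM. In the endocardium gate, cells with no UMI of the endocardial genes Nfatc1 or Npr3 had more Cyp26a1 in each library, at 10.2, 14.6, 1.56 and 39.1 CPM (13, 23, 2 and 51 UMIs) against 3.46, 4.99, 1.15 and 10.3 CPM in the rest. These cells were 88 to 117 per library and shallower, with medians of 11764 to 13937 UMIs against 15072 to 18874, and the part of depth in this split was not tested.

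Outside the gates, cushion cells (mesenchyme of the future valves, with Hapln1, Postn or Cthrc1 and no Cdh5) had Rarg at 14.5, 13.9, 13.2 and 12.9 CPM and held 30.2% of its UMIs. They were not shown to be distinct from the Prrx1 gate, where the summed level of the 5 cushion markers was 387, 1364, 1816 and 1072 CPM and that of the 9 markers of Prrx1 mesenchyme 1029, 1127, 1145 and 1020 CPM in Wt rep1, Wt rep2, Ho rep1 and Ho rep2. They had Cyp26b1 at 2.00, 1.81, 2.34 and 3.59 CPM, under the level of the endocardium. Cells with Shox2 but little Tnnt2, 102, 42, 55 and 87 in number, had Aldh1a2 at 16.6, 5.22, 1.38 and 18.9 CPM and Crabp2 at 583, 106, 97.7 and 200 CPM, and Aldh1a2 lay above the sinus venosus gate of the same library in 3 of 4. These cells were grouped after the values had been seen.

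The genes most like each member over the 26 sums were found among 8081 genes by the correlation of log2(CPM + 1). The sums share libraries, so r is a description. Nearest to Aldh1a2 were Zcchc3 (r = 0.93), Rspo1 (r = 0.92) and the epicardial and mesenchymal factor Tcf21 (r = 0.89), and nearest to Cyp26a1 the endothelial factor Sox18 (r = 0.91), Sost (r = 0.91) and Thsd1 (r = 0.91). Crabp1 went with Mfap4 (r = 0.94) and Igdcc3 (r = 0.93), Crabp2 with the RNA-binding protein gene Msi1 (r = 0.95), and Rarg with Gata3 (r = 0.93).

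Other genes of retinoid handling were read from a list of 21, of which 18 passed the filter on low counts. The epicardium had a second retinaldehyde dehydrogenase, Aldh1a1, at 55.1, 48.8, 65.5 and 71.2 CPM (120, 198, 204 and 293 UMIs). The other cardiomyocytes held 2, 2, 5 and 1 UMIs of it and the endocardium 2, 0, 0 and 1. No fitted fold change is given for Aldh1a1, since it would rest on gates at or near 0. Retinol dehydrogenase Rdh10, which makes the substrate of Aldh1a2, did not follow the epicardium, where it was at 1.84, 3.20, 1.61 and 3.89 CPM and lower than the mean of the other gates by 1.30 on the log2 scale (SE 0.23, edgeR adjusted p = 6.24e-05). It was at 38.1, 41.4 and 29.2 CPM in the epithelium and 26.0, 15.0 and 18.6 CPM in Foxf1 mesenchyme. The third dehydrogenase, Aldh1a3, was at 19.2, 81.5 and 13.8 CPM in the epithelium. In all, 5 of the 18 list genes were higher and 3 lower in the epicardium, where 23.4% and 22.8% of all genes were called. Aldh1a1 stayed among the 5. There were 7 and 0 in Foxf1 mesenchyme (22.0% and 23.7% of all genes), 8 and 1 in the epithelium (25.9% and 23.6%), 5 and 6 in the endocardium (31.8% and 30.5%), 4 and 1 in Prrx1 mesenchyme (21.7% and 19.5%), 5 and 6 in the sinus venosus (31.0% and 29.1%) and 4 and 7 in the other cardiomyocytes (34.3% and 30.9%), so several of these counts lay near the share of all genes. The list's median log2 fold change was 0.03, 0.28, 0.40, -0.12, 0.00, -0.13 and -0.26 in this order, beside a median between -0.04 and 0.01 over all genes.

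Genes known to answer to retinoic acid were read from a second list of 24, of which 22 passed the filter. In the sinus venosus 11 of them were higher than in the other cardiomyocytes and 1, Tgm2, was lower, with a median log2 difference of 1.32 beside -0.03 over all genes, where 12.9% were called higher. Nr2f1, an orphan receptor of atrial identity, was at 88.5, 97.8, 96.5 and 116 CPM against 36.0, 29.3, 23.1 and 35.8 CPM (log2 difference of 1.55, SE 0.16, edgeR adjusted p = 3.72e-07), and Nr2f2 at 74.2, 87.8, 62.7 and 75.5 CPM against 25.8, 18.8, 16.5 and 22.7 CPM (1.69, SE 0.32, edgeR adjusted p = 0.000367). Hoxb4, Hoxa4, Hoxa2 and 4 further Hox genes were among those higher, some of them from few UMIs. Hoxa4 had 7, 10, 22 and 18 UMIs in the sinus venosus (1.78 to 3.41 CPM) and 5, 2, 12 and 18 in the other cardiomyocytes (0.0553 to 0.568 CPM). In Wt rep1 Hoxa2 was at 1.78 CPM against 1.50 CPM. Tbx5 did not pass, at 65.3, 65.4, 63.0 and 82.3 CPM against 33.0, 37.1, 37.7 and 42.6 CPM (edgeR adjusted p = 0.0823). Isl1 (log2 difference of 1.88, SE 0.27) and Rarres2 (2.20, SE 0.28) passed with edgeR too, and Isl1 is also in the marker lists of the sinus venosus and of Foxf1 mesenchyme.

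In Foxf1 mesenchyme 16 of the 22 response genes were higher and 1 lower than in the mean of the other gates, where 22.0% and 23.7% of all genes were called, with a median log2 fold change of 1.55 beside -0.03 over all genes. The epithelium had 12 and 5, beside 25.9% and 23.6% of all genes (median 1.06 beside 0.01). Prrx1 mesenchyme had 8 and 2, beside 21.7% and 19.5% (0.33 beside 0.00). The epicardium had 4 and 5, beside 23.4% and 22.8% (-0.27 beside -0.04), and the sinus venosus 7 and 3, beside 31.0% and 29.1% (0.03 beside -0.01). In the endocardium 3 were higher and 14 lower, beside 31.8% and 30.5%, with a median of -0.84 beside -0.01. Those higher were Tgm2, Ripply3 and Zfp703. The other cardiomyocytes had 4 higher and 14 lower, beside 34.3% and 30.9% (-1.93 beside 0.01).

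**Figure D2:**
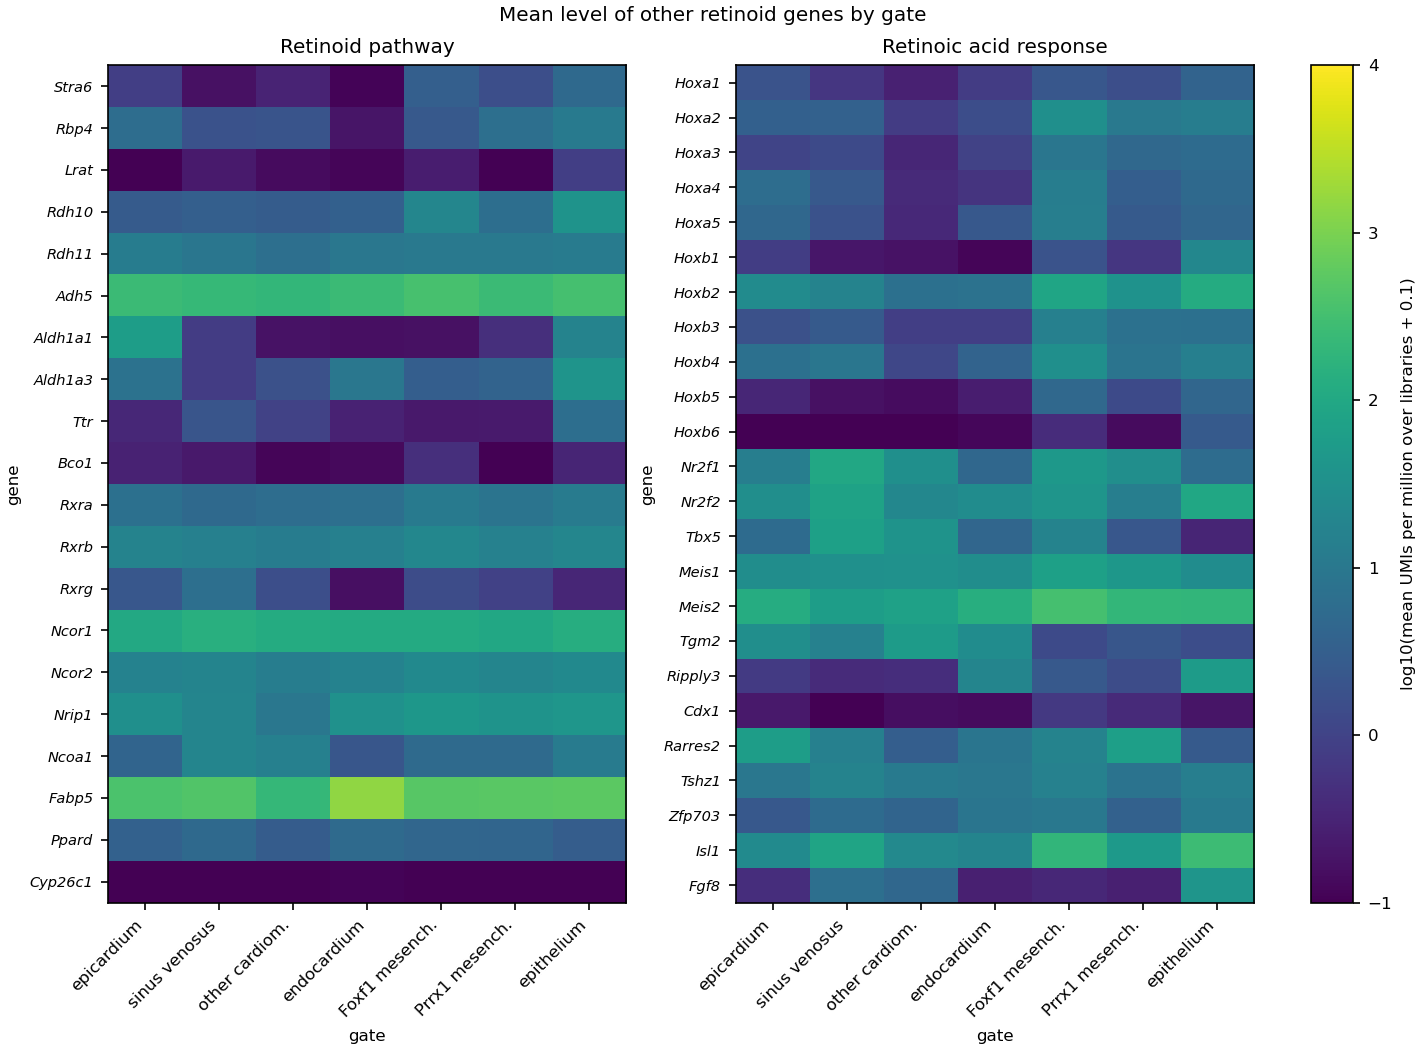
Mean level over libraries of 20 genes of the first list and 24 of the second by gate, as log10 of CPM plus 0.1. Aldh1a1 stands out in the epicardium (48.8 to 71.2 CPM), and most Hox genes are brightest in Foxf1 mesenchyme and epithelium and dark in the other cardiomyocytes.

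The mutant was compared with wild type within each gate. With 2 libraries against 2, an exact permutation test of a single value cannot go below p = 0.33, so the tests are those of edgeR fitted across all genes. In the epicardium Aldh1a2 differed by a log2 fold change of -0.03 (SE 0.16, edgeR adjusted p = 0.992), which became 0.19 (SE 0.16) without Ho rep1. Of the members 5 passed the filter there and 0 were called, beside 0.0955% of all 10474 genes. Crabp1 was at 64.8, 22.4, 16.7 and 28.9 CPM, a difference of -0.78 (SE 0.36, edgeR adjusted p = 0.899) that came from Wt rep1, since without this library it was 0.11 (SE 0.25). In the other cardiomyocytes 0 of 7 members were called, beside 0.0212% of 14176 genes, and the libraries of the genotypes overlapped for all 7, beside 36.7% of all genes without overlap.

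In sinus venosus cells most members had the genotypes in order, and 0 of 5 members were called, beside 0.00877% of 11401 genes. Crabp2 was at 102 and 78.8 CPM in Wt and 117 and 123 CPM in Ho libraries, a log2 fold change of 0.41 (SE 0.13, edgeR adjusted p = 0.679). Aldh1a2, Crabp1 and Rarb had both Ho libraries below both Wt libraries, with Aldh1a2 at 5.34 and 4.07 CPM in Wt (21 and 18 UMIs) and 3.10 and 2.66 CPM in Ho (20 and 22 UMIs), a difference of -0.71 (SE 0.35, edgeR adjusted p = 0.823). Such an order without overlap was found for 4 of 5 members and for 34.0% of all genes. Some markers, chosen after their values were seen, lay in order of genotype as well, without overlap. The sinus venosus gene Tbx18 had a log2 fold change of 0.90 (SE 0.20, edgeR adjusted p = 0.495). Twist1 was at 22.9 and 21.3 CPM in Wt and 28.9 and 42.7 CPM in Ho libraries, and the chamber gene Nppa at 377 and 493 CPM against 278 and 168 CPM (edgeR adjusted p = 0.547 and 0.460). The 7 sinus venosus markers, none at 0, summed to 1281 and 1211 CPM in Wt and 1060 and 1450 CPM in Ho libraries, led by Vsnl1. The part of these genes and of the globin level of Ho rep1 in the differences was not tested.

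In the endocardium 0 of 8 members were called, and 0 of 13125 genes (0.00%) with edgeR, with 655 genes at an unadjusted p under 0.05 and 19 called by DESeq2. Cyp26b1 was at 16.7 and 13.1 CPM in Wt and 18.9 and 18.5 CPM in Ho libraries, a log2 fold change of 0.38 (SE 0.15, edgeR adjusted p = 0.925). Crabp2 and Dhrs3 had both Ho libraries below both Wt libraries. In all 3 of 8 members did not overlap, beside 35.6% of all genes. Cyp26a1 was decided by single libraries, with a log2 fold change of 0.40 (SE 0.80) over all 4, of 1.36 (SE 0.19) without Ho rep1 and of -2.03 (SE 0.30) without Ho rep2. Ho rep1, the library with the lowest Cyp26a1, also stood apart in the 10 cardiomyocyte markers, none at 0 and led by Myl7, which summed to 854 CPM against 318, 481 and 371 CPM in Wt rep1, Wt rep2 and Ho rep2. Stmn2, a neural marker, was at 64.3 CPM in it against 132, 112 and 146 CPM. The part of these and of its globin level in the Cyp26a1 difference was not tested. The share of endocardial cells with a Cyp26b1 UMI, thinned to 2000 UMIs, was 2.59%, 2.53%, 3.52% and 4.69%, and the sinus venosus at median depths of 13664 to 16389 UMIs gave a background of 0%, 0.372%, 0% and 0.208%, where 0 of 266 and 0 of 393 cells allow up to 1.13% and 0.763%.

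**Figure D3:**
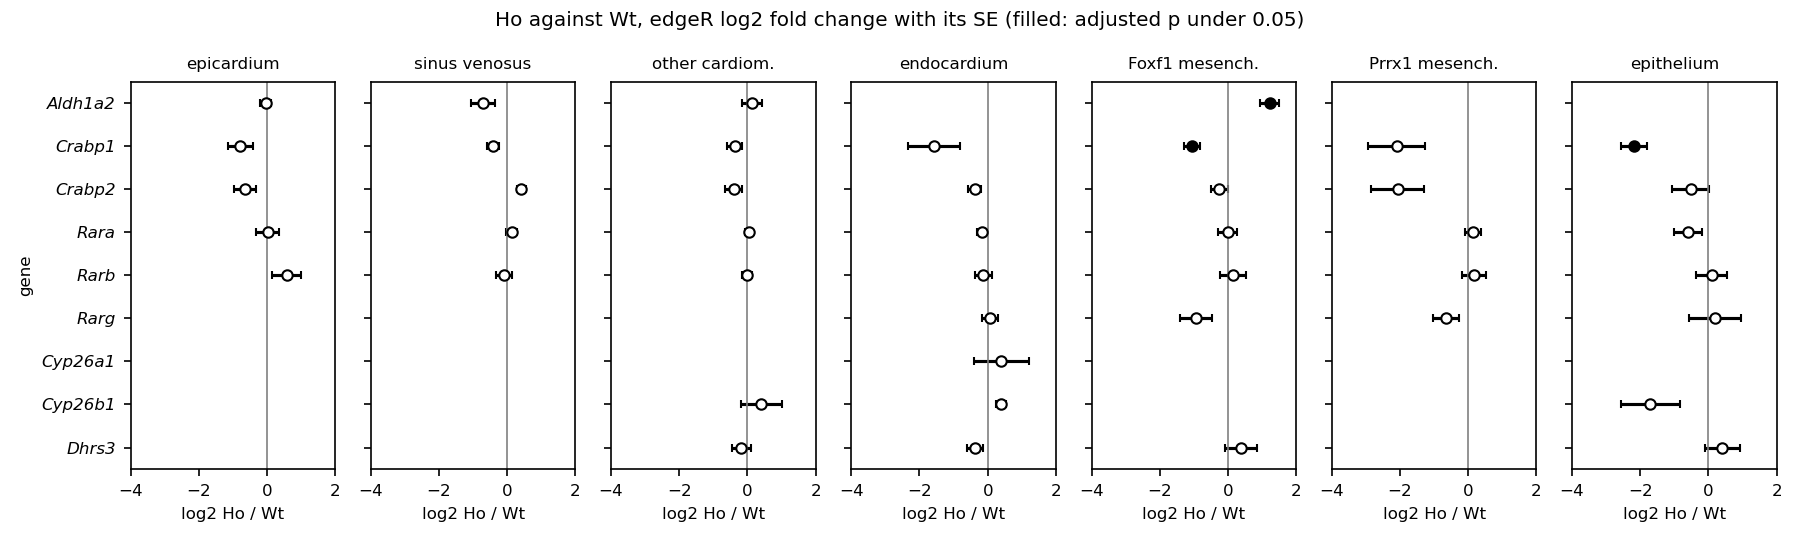
Log2 fold change of Ho against Wt for each member that passed the filter, by gate, with bars of 1 SE from edgeR and filled points where the adjusted p is under 0.05. The 3 filled points, Aldh1a2 and Crabp1 in Foxf1 mesenchyme and Crabp1 in the epithelium, rest on 1 Ho library.

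Calls came only in the gates that Ho rep1 all but lacked, so 1 Ho library (Ho rep2) stood against 2 Wt libraries and was assumed to vary as they did. In Foxf1 mesenchyme Aldh1a2 rose by a log2 fold change of 1.22 (SE 0.28, edgeR adjusted p = 0.00203) and Crabp1 fell by 1.05 (SE 0.24, edgeR adjusted p = 0.00167), 2 of 7 members beside 2.53% of all 11493 genes. The Wt libraries themselves differed for Aldh1a2, at 19.8 and 8.53 CPM. Neither call was kept by DESeq2 (adjusted p = 1.00 for Aldh1a2 and 0.113 for Crabp1), at 10 counts in every library, at a stricter Foxf1 limit or with cells of several gates kept, where edgeR's adjusted p for Aldh1a2 ran from 0.183 to 0.579. Some markers of the mesenchyme were highest in Ho rep2. Osr1, a gene of the posterior second heart field and lung mesenchyme, was at 32.4 and 12.6 CPM in Wt rep1 and Wt rep2 and at 110.4 CPM in Ho rep2, Wnt2 at 7.24, 6.91 and 95.1 CPM, and Tcf21 at 92.6, 21.1 and 163 CPM. Other markers were lowest in Ho rep2, with Isl1 at 175, 242 and 163 CPM, Hand2 at 76.9, 113 and 57.4 CPM, Twist1 at 158, 227 and 89.8 CPM, Prrx1 at 54.3, 45.1 and 24.9 CPM and the anterior gene Tbx1 at 22.8, 67.4 and 19.2 CPM. The summed level of the 7 Foxf1 mesenchyme markers was 554, 641 and 693 CPM, led by Foxf1 or Isl1, with none at 0. Among sinus venosus markers, Vsnl1 was at 2.98, 7.31 and 30.0 CPM in Wt rep1, Wt rep2 and Ho rep2. Smoc2 was at 0.213, 0 and 14.5 CPM and Tbx18 at 0, 0.406 and 7.66 CPM. Shox2 and Tbx3 were highest in Ho rep2 as well, but Hcn4 and Isl1 were not. The 7 sinus venosus markers summed to 202, 277 and 261 CPM, led by Isl1. The part of all these markers in the result was not tested.

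In the epithelium Crabp1 fell by 2.19 on the log2 scale (SE 0.38, edgeR adjusted p = 0.00822), 1 of 7 members beside 0.593% of 11975 genes. Its levels were 218 and 166 CPM in Wt and 38.4 CPM in Ho rep2. With doublets kept the adjusted p was 0.0566, and with DESeq2 it was 0.0105. The endoderm factor Foxa2 was at 8.92 and 14.7 CPM in Wt and 43.9 CPM in Ho rep2. Genes of foregut regions differed between the Wt libraries too, with the lung and thyroid factor Nkx2-1 at 20.3, 90.2 and 120 CPM and the pharyngeal pouch factor Pax9 at 84.1, 7.35 and 3.79 CPM. Prrx1 mesenchyme had the highest mean of Crabp1 only through Wt rep1, at 864 CPM. Its 9 markers summed in the epithelium to 119.5 and 59.5 CPM in Wt and 22.7 CPM in Ho rep2. Of these markers 8, 6 and 6 were detected, led by Prrx2 at 103, 36.8 and 15.4 CPM. The 5 cushion markers, led by Cthrc1, summed to 61.3, 80.2 and 186 CPM, and Isl1 was at 260, 403 and 154 CPM. The 10 epithelial markers summed to 2819, 2847 and 3142 CPM, led by Epcam, with none at 0. Their part was not tested.

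Prrx1 mesenchyme had 4 libraries, and 0 of 5 members and 0 of 10400 genes (0.00%) were called with edgeR, with 187 genes at an unadjusted p under 0.05 and 0 called by DESeq2. Crabp1 and Crabp2 differed by -2.09 (SE 0.84) and -2.07 (SE 0.79), with an edgeR adjusted p of 0.972 for both. Without Wt rep1 these were -0.01 (SE 0.27) and -0.34 (SE 0.34). Beside the high Crabp1 of Wt rep1, its Prrx1 cells had less of the cushion genes Hapln1, at 71.1 CPM against 421, 596 and 347 CPM, and Postn, at 40.2 CPM against 223, 326 and 177 CPM. The 5 cushion markers summed to 387, 1364, 1816 and 1072 CPM. The part of this make-up in the difference was not tested. Rara (higher in Ho) and Rarg (lower in Ho) were the 2 of 5 members without overlap, beside 30.0% of all genes.

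**Figure D4:**
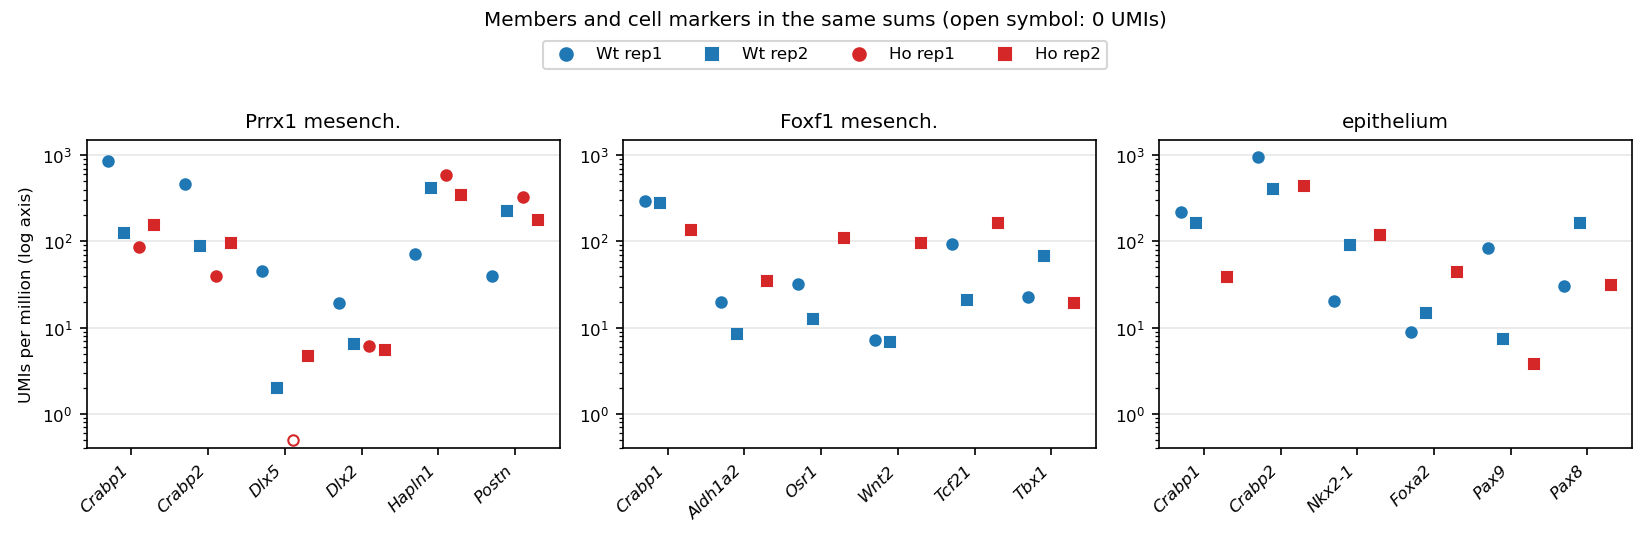
Members and markers in the same sums of Prrx1 mesenchyme, Foxf1 mesenchyme and epithelium, in CPM (log axis), with 1 point per library. In the left panel Wt rep1 is high in Crabp1, Crabp2 and Dlx5 and low in Hapln1 and Postn, and in the middle panel Ho rep2 is high in Aldh1a2, Osr1, Wnt2 and Tcf21.

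Whole libraries mixed level and make-up, and fewer cells of a type and less RNA per cell cannot be told apart in them. Crabp1 was at 286, 46.5, 15.5 and 47.3 CPM, a log2 fold change of -2.39 (SE 0.97, edgeR adjusted p = 0.803), which was -0.53 without Wt rep1. Crabp2 was at 272, 59.7, 23.3 and 101 CPM. Of the 9 members 0 were called, and 0 of 16978 genes (0.00%) with edgeR, with 786 at an unadjusted p under 0.05 and 22 called by DESeq2.

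Between the genotypes the response list had calls in Foxf1 mesenchyme alone among the 7 gates. In the epicardium, the sinus venosus, the other cardiomyocytes and the endocardium 0 of the 14, 16, 19 and 19 genes that passed the filter were called with edgeR, with a median of 0.12, 0.15, -0.04 and 0.08 on the log2 scale beside 0.00 over all genes in each, and 0.0955%, 0.00877%, 0.0212% and 0.00% of all genes called. In Prrx1 mesenchyme 0 of 15 were called (median -0.46 beside 0.01, with 0.00% of all genes called), and in the epithelium 0 of 21 (-0.60 beside -0.02, with 0.593%). In Foxf1 mesenchyme 7 of 21 were higher in Ho rep2 and 1 was lower, beside 2.53% of all genes, with a median of 0.08. Those higher included Hoxa5, at 2.98 and 0 CPM in Wt and 37.3 CPM in Ho rep2, Tbx5 at 4.90, 2.44 and 43.5 CPM and Nr2f2 at 17.5, 15.0 and 88.8 CPM, and Meis2 was lower at 371, 438 and 197 CPM. They rest on the same single Ho library as the call of Aldh1a2, and the part of the markers given there was not tested. Of the 16 pathway genes that passed, Nrip1 alone was called in this gate, higher by 0.87 (SE 0.23, edgeR adjusted p = 0.0153), and 0 genes of it in the other gates.

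Whether the genotype difference itself depended on the gate was tested as an interaction with the other cardiomyocytes as reference. None of the 9 members passed with edgeR in any of 6 gates. The smallest adjusted p was 0.309, for Crabp1 in the epithelium (difference of -2.08, SE 0.78), beside 0.383% of 13054 genes called. Without Wt rep1 or Wt rep2 this member passed (edgeR adjusted p = 0.000187 and 0.000244), with the lone libraries assumed to vary like the rest. In Foxf1 mesenchyme 0.199% of genes were called, and in the epicardium, sinus venosus, endocardium and Prrx1 mesenchyme 0.00%, with 329, 261, 115 and 914 genes at an unadjusted p under 0.05.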

How the data were processed

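The authors deposited raw UMI counts per gene and cell for 4 droplet libraries, made with Cell Ranger 6.1.1 per the submitters' notes and mapped to mm10. Total depth was 109893733, 117034633, 127018819 and 107377100 UMIs in Wt rep1, Wt rep2, Ho rep1 and Ho rep2. Cells with 500 to 50000 UMIs, 500 to 6000 genes and at most 20% mitochondrial UMIs were kept, the limits of the study's methods. Scrublet (scanpy 1.11.5) was used in place of the study's doublet caller, and the highest-scoring share of cells, 0.8% per 1000 cells, was removed. Gates needed 3 UMIs of Upk3b, Cdh5 or Epcam, 2 of Foxf1, Prrx1 or Shox2, or 10 Tnnt2 UMIs per 10000. These limits were set after the distributions of the markers had been seen, and cells in several gates were left out.

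UMIs were summed per gate and library and tested across all genes with edgeR 4.0.16 (R 4.3.3; quasi-likelihood, TMM, filterByExpr, Benjamini-Hochberg, adjusted p under 0.05). Gate contrasts kept the library as a block. Foxf1 mesenchyme and epithelium were fitted without Ho rep1. DESeq2 1.42.0, another normalization, other filters, other gate limits, doublets kept and single libraries left out were the alternatives. Simulated 2-fold changes (1 on the log2 scale) were recovered for 175 of 200 genes in the endocardium comparison (13125 genes), 163 of 200 in the epicardium (10474 genes) and 171 of 200 in the other cardiomyocytes (14176 genes). In the same runs 28, 10 and 15 unchanged genes were called, in all 3 above the 5% of calls that the adjustment aims at. The 200 changed genes were drawn only from genes above a limit on the mean count. Recovery of scarcer genes was thus not measured. Named genes were the 9 members, Cyp51, Xist, the gate and cell type markers, 2 gene lists and the 3 most correlated genes of each member. The members and lists were chosen with earlier results of these data known. Promoters came from RefSeq (GRCm38.p6). No deposited column of counts was left unused. The values of 1 gene of the retinoid pathway list are not reported here, and it stayed in the counts over that list.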

Additional observations from a re-analysis of the deposited data

Results flagged for a closer look

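In Prrx1 mesenchyme 3 values of Wt rep1 lay farther from the other 3 libraries than Dixon's 95% limit allows. Crabp1 was at 864 CPM, the highest of 4 libraries, and Crabp2 at 462 CPM, also the highest. Rara was at 17.9 CPM, the lowest. In all 34 sets of 4 libraries with at least 20 UMIs were looked at, and chance alone would mark about 1 in 20 of them, or 1.7.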

How the results depend on the processing

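Among the repeats of gate contrasts of members, 276 kept direction and call and 10 lost the call. Among those of genotype contrasts, 126 were unchanged, 9 lost and 9 gained a call, and 4 changed sign. Those that changed sign were Aldh1a2 in the epicardium without Ho rep1 (0.19, range without 1 library -0.33 to 0.19), Crabp1 there without Wt rep1 (0.11, range -1.47 to 0.11), and Cyp26a1 in the endocardium without Ho rep2 (-2.03, range -2.03 to 1.36) and with crossed replicate numbers (-0.10). The cause was not tested.

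Counts of genes called between genotypes moved under several alternatives. In the epicardium (10 genes) DESeq2 gave 6, no filter 110, at least 10 counts 5, doublets kept 5, stricter limits 3 and cells of several gates kept 24. In the sinus venosus (1 gene) DESeq2 gave 2, no filter 98 and doublets kept 0. In the other cardiomyocytes (3 genes) DESeq2 gave 25, no filter 245, at least 10 counts 5, stricter limits 10, and RLE normalization, at most 10% mitochondrial UMIs, doublets kept and several gates kept 0 each. In the endocardium (0) DESeq2 gave 19 and no filter 223. In Foxf1 mesenchyme (291) DESeq2 gave 23, at least 10 counts 46, stricter limits 46, several gates kept 82 and both mesenchyme gates as 1 gave 0. Prrx1 mesenchyme (0) had 97 with no filter. In the epithelium (71) DESeq2 gave 18, no filter 255, at least 10 counts 42, doublets kept 25 and stricter limits 42. Whole libraries (0) had 22 with DESeq2. Between gates, Prrx1 mesenchyme against the others fell to 3204 genes with several gates kept, and Foxf1 against Prrx1 mesenchyme to 1466 at stricter limits.

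Leaving out 1 library gave 57 to 113 genes in the epicardium, 2 to 53 in the sinus venosus, 10 to 314 in the other cardiomyocytes, 8 to 205 in the endocardium, 0 to 1121 in Prrx1 mesenchyme and 0 to 5 in whole libraries, where a lone library was assumed to vary like the others. It gave 784 to 3209 for Foxf1 against Prrx1 mesenchyme and 2373 to 3984 for the sinus venosus against the other cardiomyocytes. For the interactions it gave 0 to 497 in Foxf1 mesenchyme, 0 to 1754 in Prrx1 mesenchyme, 1 to 1371 in the epithelium and 0 to 1 in the sinus venosus.

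Libraries with the same replicate number did not deviate together (correlations of -0.45 to 0.02), so they share only a number. A replicate block gave 33 genes in the epicardium, 29 in the sinus venosus and 0 in the other cardiomyocytes. Crossed numbers, chosen after seeing the data, gave 47, 47, 94, 46 and 64 genes in the epicardium, sinus venosus, other cardiomyocytes, endocardium and whole libraries. No paired analysis was possible for Foxf1 mesenchyme and epithelium because Ho had 1 library there.

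Shares of cells depend on depth. For Aldh1a2 in the epicardium they were 23.3%, 23.4%, 19.3% and 22.9% at 5000 UMIs and 48.4%, 51.9%, 50.4% and 59.2% without thinning. For Cyp26b1 in the endocardium they were 6.32%, 5.43%, 8.54% and 8.37%, and 14.0%, 12.7%, 16.9% and 17.8%.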

Other observations

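Partners of the receptors and carriers also differed between gates. Rxrg, a retinoid X receptor, was at 5.08 to 8.15 CPM in the sinus venosus and 1.50, 1.27, 1.40 and 1.70 CPM in the other cardiomyocytes, a log2 difference of 1.99 (SE 0.33, edgeR adjusted p = 0.000116). Fabp5, a carrier that can bring retinoic acid to another nuclear receptor, was at 1482, 1371, 1630 and 1539 CPM in the endocardium, a log2 fold change of 1.86 against the mean of the other gates (SE 0.10, edgeR adjusted p = 2.43e-13).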
